A study of Nothobranchius furzeri with 10 samples.

Results

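The 200 gene models whose RNA level varied most among muscle samples of unexercised male turquoise killifish were examined. They were chosen out of 8124 gene models with a mean of at least 5 normalised CPM (read counts scaled to a common library size) over unexercised replicates 1, 2, 3 and 5, themselves part of 26739 gene models in the count table. The choice was made by the standard deviation (SD) of log2(CPM + 1) over those 4 libraries. Nothobranchius furzeri is a short-lived annual fish of seasonal ponds. The 5 exercised samples came from males that had been placed in a swim tunnel, and the 5 unexercised samples from males with no perturbation. All 10 samples were from fish of line 4010, aged 10 weeks, that carried the transgene labelled Tg(mylz2:egfp,tfam), so the controls carried it too. In zebrafish the promoter of mylz2, a myosin light chain gene, drives transgenes in fast muscle fibres; egfp encodes a green fluorescent protein and tfam a factor that binds and packages mitochondrial DNA. Whether each sample is a separate animal is not stated in the labels. A p-value here covers only the spread of these samples, part of which may be technical.

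Whole muscle holds fast and slow fibres together with fibroblasts, vessels, blood cells and nerve. RNA levels of fish kept alike can differ through the amounts of these cells, through inherited differences between animals, and through states such as feeding, stress, growth and immune activity. In bulk muscle, fewer cells of a type and less RNA per cell cannot be told apart. The tables give identifiers without names, and none of them (0 of 26739) matched the reference gene table, so roles, tissue markers and sequences of the members were not analysed here.

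Totals ranged from 25927913 to 40433810 counts over the 10 libraries. Exercised replicate 3 and unexercised replicate 4 stood apart. Their 10 most abundant gene models took 25.8% and 24.2% of the counts, against 39.6% to 43.9% in the other 8. Neither library entered the choice of members beyond the size factors, and both are given separately below. Comparisons between groups used the other 8 libraries, 4 per group.

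The members' level ranged widely between unexercised libraries. Their SD ran from 0.628 to 2.83 with a median of 0.828, against a median of 0.175 over all 8124 gene models. The highest of the 4 libraries exceeded the lowest by a median of 3.71-fold on the CPM + 1 scale, and by 65.5-fold at most. These values made the choice and are a description. The limit fell within a dense range, with SDs of 0.628 to 0.632 for the last 5 members and 0.623 to 0.628 for the next 5 gene models outside. Counting error was small beside this spread. The members had a median of 473 counts per unexercised library, and their SD was 6.08 to 85.9 times that from counting alone, with a median of 13.2 times. Their mean level in unexercised muscle had a median of 17.3 CPM (quartiles 9.11 and 62.2), against 16.2 CPM (quartiles 8.78 and 36.5) over all eligible gene models, so the upper quartile was higher among members. The members were also shorter at each quartile. Their median length was 2815 bases (quartiles 1601 and 4678), against 3333 bases (quartiles 1785 and 5595).

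Of the members whose farthest unexercised library was a high one, Nfu_g_1_005737 had the largest SD. Its unexercised replicates 1, 2, 3 and 5 stood at 8.80, 3.52, 104 and 296 CPM, and its exercised replicates 1, 2, 4 and 5 at 323, 15.7, 330 and 379 CPM. High and low libraries were thus found in both groups, and the groups overlapped. For this member and those named below, a wide range among the unexercised libraries follows from the choice, and with it part of the overlap. Next came Nfu_g_1_017984, with 1.06, 1.69, 0.744 and 38.9 CPM in the unexercised libraries and 1.68, 60.3, 50.8 and 37.1 CPM in the exercised libraries, in the same order. One unexercised library was at the level of the high exercised ones, and 1 exercised library at the level of the low unexercised ones. Unexercised replicates 1, 2 and 3 lay below 5 CPM, so this member met the minimum mean only through replicate 5.

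Of the members whose farthest unexercised library was a low one, Nfu_g_1_018306 had the largest SD, with 17.0, 193, 653 and 792 CPM in the unexercised libraries and 1.01, 15.2, 309 and 413 CPM in the exercised libraries. Its SD over the exercised libraries, 3.67, was the largest of all 8124 gene models. Nfu_g_1_011475 was next, with 11.9, 11.7, 0 and 0.072 CPM in the unexercised and 0, 8.75, 9.80 and 10.3 CPM in the exercised libraries. It was close to absent or near 10 CPM, with nothing between, in both groups.

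The exercised libraries had no part in the ranking beyond the size factors, so they show whether the same gene models varied elsewhere. Most did. Of the 200 members, 108 were also among the 200 gene models with the largest SD over exercised replicates 1, 2, 4 and 5, a list that holds 2.46% of the eligible gene models. In the top 10% of exercised SD, 812 gene models, there were 161 members (80.5%). The members' SD in exercised muscle had a median of 0.773 (quartiles 0.496 and 1.22), against 0.204 (quartiles 0.134 and 0.300) over all eligible gene models. Of the 91 eligible gene models with an exercised SD above 1, 68 were members. Only 9 members had an exercised SD under the median of all eligible gene models.

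A reverse choice among the same eligible gene models gave a like picture. The minimum mean was still that of the unexercised libraries, and the 108 shared members are part of this list too. The 200 gene models with the largest SD over the exercised libraries had a median SD of 0.971 there and 0.676 in the unexercised libraries, and 163 of them were in the top 10% of unexercised SD. The members' SD was larger in the exercised libraries for 79 of 200, against 58.0% of all eligible gene models; a smaller SD outside the libraries that made the choice follows in part from that choice. Without unexercised replicate 1, the members chosen from the other 3 libraries shared 60 with the exercised list in place of 108.

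**Figure D1:**
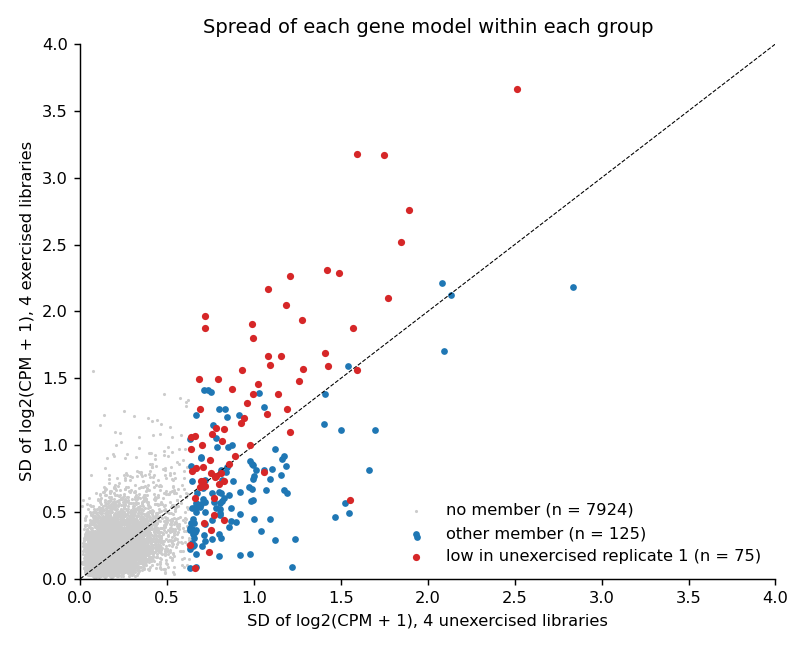
Each point is 1 of the 8124 eligible gene models, with the SD of log2(CPM + 1) over the 4 unexercised libraries on the x axis and over the 4 exercised libraries on the y axis, and a dashed line of equality. The 75 members that were low in unexercised replicate 1 (red) had a median exercised SD of 1.16, the other 125 members (blue) 0.603, and non-members (grey) 0.200.

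The members were then sorted by the unexercised library that lay farthest from the median of the 4, and by whether it was high or low. A low value in unexercised replicate 1 was the commonest of the 8 patterns, with 75 members, while a high value there was found for 4. Unexercised replicate 2 was the high library for 30 members and the low one for 8. Unexercised replicate 3 was low for 21 and high for 15, and unexercised replicate 5 was high for 30 and low for 17. Each member was counted for 1 library only, even where another lay nearly as far. Nfu_g_1_011475, for example, was counted as low in replicate 3 but was near 0 in replicate 5 too. With axes found separately in each group, the first held 56.9% of the members' variance among the unexercised libraries and 80.2% among the exercised libraries. Over all eligible gene models, which include the members, the shares were 47.2% and 65.7%. With 4 libraries per group there are few axes, so a first axis is large in any case.

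**Figure D2:**
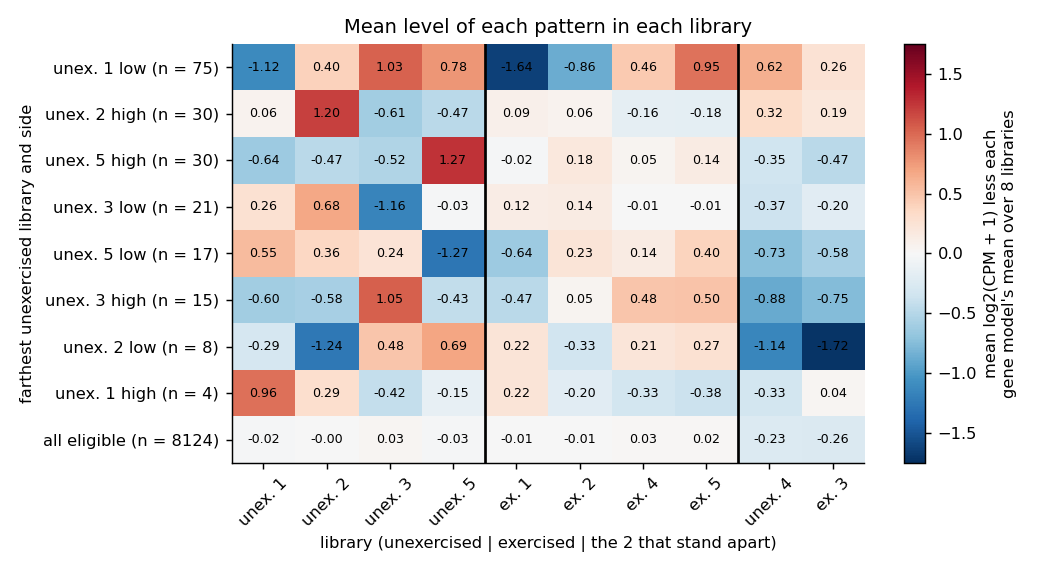
Each cell is the mean over the members of a pattern (rows) of log2(CPM + 1) in a library (columns), less each gene model's mean over the 8 libraries, with red above and blue below. Differences among the columns of unexercised replicates 1, 2, 3 and 5 follow from how rows were defined. In exercised replicates 1, 2, 4 and 5 the top row runs from -1.64 to 0.95. The bottom row, all eligible gene models, stays between -0.01 and 0.03 in those exercised columns. The last 2 columns are unexercised replicate 4 and exercised replicate 3, where the bottom row is at -0.23 and -0.26.

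The 75 members low in unexercised replicate 1 moved together in the exercised libraries as well. The mean Pearson correlation between pairs of them over the 4 exercised libraries was 0.66. It was 0.0765 between pairs of all 200 members, which include these 75, and 0.00199 between pairs of all eligible gene models. All pairs share the same libraries, and each mean is a description over 4 points per pair. In 66 of the 75 (88.0%), exercised replicates 1 and 2 were both below exercised replicates 4 and 5, an order found in 21.7% of the eligible gene models. The opposite order was found in 1 of the 75 and in 21.8% of the eligible gene models. This split of the exercised libraries was not planned and was set after the values had been seen. A high share in the set follows in part from that, so the shares and the fold difference across the split are a description. Exercised replicates 4 and 5 exceeded replicates 1 and 2 by a median of 3.56-fold, and the highest exercised library exceeded the lowest by a median of 5.55-fold.

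Low and high levels of the set were found in both groups. Taken as the mean deviation of log2(CPM + 1) from each member's mean over the 8 libraries, it was -1.12, 0.40, 1.03 and 0.78 in unexercised replicates 1, 2, 3 and 5, and -1.64, -0.86, 0.46 and 0.95 in exercised replicates 1, 2, 4 and 5. The low libraries were thus unexercised replicate 1 and exercised replicates 1 and 2, and the ranges of the groups overlapped. For 55 of the 75 all 3 of these lay below all 5 others. This is a description, since unexercised replicate 1 defined the set and the 3 were read from the set's own means. Averaged by group, the set level was -0.27 ± 1.19 over the exercised and 0.27 ± 0.96 over the unexercised libraries (SD, n = 4 each). The difference was smaller than the spread within either group, but the unexercised spread, and with it the overlap, follows in part from choosing members low in unexercised replicate 1. These values therefore do not show that the set's level was alike in the groups.

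As a share of each library's own total, the set took 0.303%, 0.710%, 1.14% and 1.04% of the counts in unexercised replicates 1, 2, 3 and 5. It took 0.250%, 0.411%, 0.967% and 1.30% in exercised replicates 1, 2, 4 and 5. Scaled by library totals in this way, the set was low in the same 3 libraries. In the 2 libraries that stood apart it took 1.71% in unexercised replicate 4 and 1.29% in exercised replicate 3, and its level there was 0.62 and 0.26. The mean level of all eligible gene models was itself shifted there, to -0.23 and -0.26. In the low 3, the share of counts in the top 10 gene models was 41.5% to 43.9%. This was above 4 of the other 5, at 39.6% to 41.4%, while unexercised replicate 2, at 43.1%, lay within their range. In the low 3, 14847 to 15521 gene models had at least 10 counts, against 14740 to 15709. Their totals were 29951432 to 40433810, against 27354429 to 37390210. The part of these measures in the set's level was not tested.

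**Figure D3:**
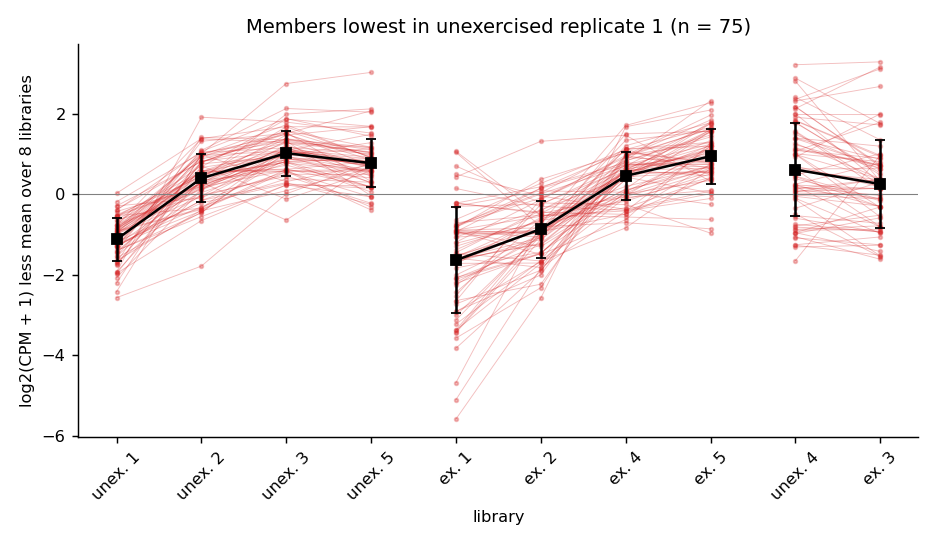
Thin red lines are the 75 members low in unexercised replicate 1, and black squares with bars their mean ± SD over members, as log2(CPM + 1) less each member's mean over the 8 libraries. Lines join libraries only to trace a member, as replicates have no order. The set stood at -1.12 in unexercised replicate 1, -1.64 and -0.86 in exercised replicates 1 and 2, and between 0.40 and 1.03 in the other 5 of the 8.

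The members of this set did not all follow it to the same degree. Exercised replicate 1 was the lowest of the 8 libraries for 46 members, unexercised replicate 1 for 22, exercised replicate 2 for 5 and exercised replicate 5 for 2. The highest library was unexercised replicate 3 for 31 members and exercised replicate 5 for 26. Over the 8 libraries, 45 of the 75 had a correlation of at least 0.9 with the set's mean, which includes them, while the lowest was 0.0348. Outside the members, 40 of 7924 eligible gene models also reached 0.9. Their SDs had a median of 0.395 among unexercised and 0.566 among exercised libraries. An unexercised SD below that of the members follows from their not being chosen. How many gene models would reach 0.9 with another mean over 8 libraries was not examined. A further 16 had a correlation of -0.9 or lower.

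The other patterns had lower correlations over the exercised libraries. Over the exercised libraries the mean correlation between members was 0.0782 for those high in unexercised replicate 2, -0.0262 for those high in replicate 5, -0.0131 for those low in replicate 3, 0.106 for those low in replicate 5 and 0.0755 for those high in replicate 3. For the 8 low in replicate 2 it was 0.0747 and for the 4 high in replicate 1 -0.179. The value was 0.00199 for all eligible gene models and 0.66 for the largest set; the difference between patterns was not tested. The members themselves still varied. Of the 125 outside the largest set, 48 were among the 200 with the largest exercised SD and 91 in the top 10%, with a median exercised SD of 0.603. Of the 75 in that set, 60 and 70 were.

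Some members stood at 2 separate levels over the 8 libraries of the comparison, with none of these 8 between. With a gap of at least 2 on the log2(CPM + 1) scale that was wider than the range on either side, and at least 2 libraries on each side, there were 12 such members over the 8 libraries. In all, 13 of the 8124 eligible gene models met these terms, which were set after the values had been seen, and a large SD favours them. Of the 12, 6 had unexercised replicate 1 and exercised replicates 1 and 2 as their low libraries and belonged to the largest set. The other 6 had different low libraries from one to the next. The member with the fifth largest SD was at 1.01 CPM in unexercised replicate 5 and 0.629 CPM in exercised replicate 1, and between 29.4 and 37.1 CPM in the other 6. Its left-out libraries, at 35.2 and 30.1 CPM, were at the high level. Nfu_g_1_011475, given above, was at 9.78 CPM in unexercised replicate 4 and 0.0433 CPM in exercised replicate 3, so each left-out library fell at one of its 2 levels. For Nfu_g_1_017984 they fell between the levels, at 7.10 and 8.72 CPM. Exercised replicate 3 also fell between the levels for the members of rank 2, 8, 9, 18, 19, 21 and 34. For that of rank 34 unexercised replicate 4 did so too. Only for the members of rank 1, 4, 5 and 7 were both left-out libraries outside the gap. The 2 levels are thus a description of the 8 libraries.

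**Figure D4:**
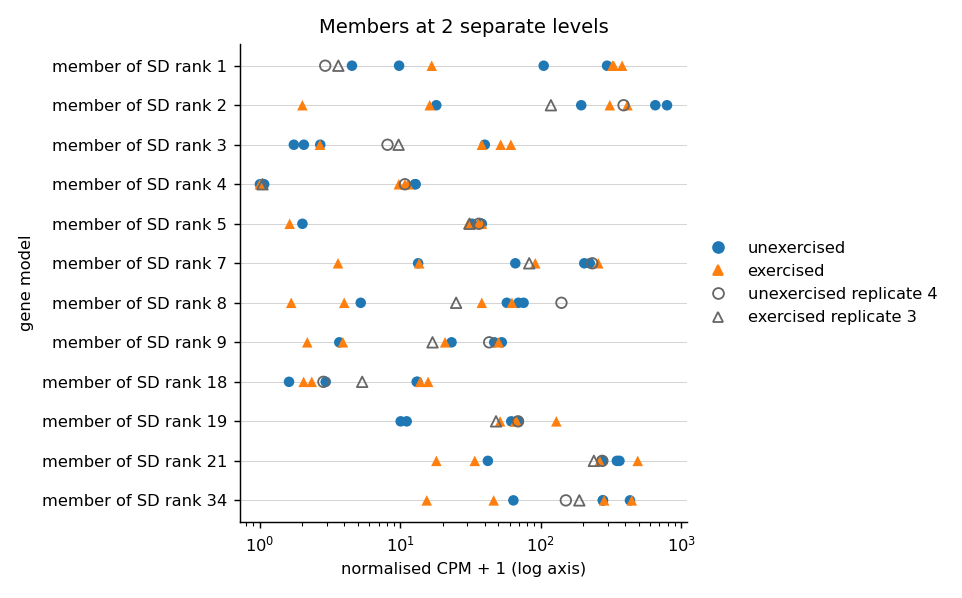
Rows are the 12 members at 2 separate levels over the 8 libraries of the comparison, by the rank of their unexercised SD. Points are libraries on a log axis of normalised CPM + 1, with circles for unexercised and triangles for exercised libraries. Open symbols are the 2 libraries that stood apart, which lie between the levels in some rows. Both shapes are found at both levels in 11 of the 12, while the row of rank 19 has its low level in 2 unexercised libraries only. Members were chosen by their unexercised SD, so circles at both levels follow in part from the choice.

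In other members 1 library stood out. The member with the sixth largest SD stood at 27.6 CPM in unexercised replicate 5 and at 0.0419 to 1.32 CPM in the other 7 libraries of the comparison. Another, of rank 32, stood at 15.2 CPM in the same library and at 1.89 to 2.27 CPM in the 4 exercised libraries. In both members unexercised replicates 1, 2 and 3 lay below 5 CPM, so the minimum mean was met only through the high library. A gene model at such a level with 1 still lower library could not have been a member. For members like these, a high rather than a low lone library therefore follows in part from the minimum. For 8 members, 1 library lay at least 2-fold beyond 7 that were within 2-fold of each other, on the CPM + 1 scale. The lone library was unexercised replicate 5 for 5 of the 8, which was high in 4 and low in 1. Over all eligible gene models there were 16 such cases. In the 8 outside the members the lone library was an exercised one, and in the 8 members an unexercised one, which follows from choosing by the unexercised SD.

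The left-out libraries are a further look at the members, although most eligible gene models lay outside the range of the 4 unexercised libraries there. In unexercised replicate 4, 106 of the 200 members (53.0%) lay within the range of the 4 unexercised libraries, 42 above and 52 below. Of all eligible gene models 19.3% lay within, 29.1% above and 51.6% below. In exercised replicate 3 the members within that range were 112 (56.0%), against 18.7% of all. A wide range in the 4 libraries, which made the choice, leaves more room to fall within it.

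The members were tested for a difference between exercised and unexercised muscle in the fit across all gene models. It was run with 4 libraries per group by the quasi-likelihood method of edgeR, and p-values were adjusted by Benjamini-Hochberg. All 200 members passed the filter on low counts. At an adjusted p under 0.05, 1 member was higher and 1 lower in exercised muscle, 1% of the members, against 6.34% of the 15200 gene models tested (3.96% higher, 2.38% lower). The groups did not overlap for 2 members that were higher and 2 that were lower, against 7.01% and 6.15% of all tested. Both lower ones averaged under 5 CPM over the exercised libraries (0.294 and 1.33 CPM), a minimum set in the unexercised libraries only. Their direction therefore follows in part from the choice. The members' spread enters this test. Their log2 fold changes had a median SE of 0.59, against 0.19 over all tested, and a median size of 0.44, against 0.23. Low counts of calls therefore follow in part from the choice. The test cannot show that the members did not differ. More than a 2-fold difference was estimated for 33 members, of which 2 passed. How many of all tested gene models exceeded 2-fold was not counted, so neither number can be called high or low. With all 10 libraries edgeR called none of 15337 gene models (0%), with 912 higher and 549 lower at an unadjusted p under 0.05; among members there were 4 and 9. With 8 libraries DESeq2 called 6 members higher and 3 lower, against 10.2% of all gene models with an adjusted p, and limma voom called 2 higher and 0 lower, against 5.48%.

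The member that rose was Nfu_g_1_020932. It stood at 18.5, 27.4, 40.9 and 65.9 CPM in unexercised replicates 1, 2, 3 and 5 and at 141, 107, 145 and 176 CPM in exercised replicates 1, 2, 4 and 5, on the TMM scale of the test. All 4 exercised libraries lay above all 4 unexercised ones. The exercised mean was 142 ± 28.3 CPM and the unexercised mean 38.2 ± 20.6 CPM (SD, n = 4 each). On the log2 scale the change was 1.90 ± 0.36 (SE), with an adjusted p of 0.0169 in edgeR. The call was lost without exercised replicate 4 (edgeR adjusted p = 0.0526), without unexercised replicate 3 (0.0564) and with all 10 libraries (0.0835); over the alternatives the adjusted p ran from 4.57e-07 to 0.0835.

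The member that fell, Nfu_g_1_012506, stood at 1.70, 5.09, 6.13 and 5.41 CPM in the unexercised libraries and at 1.16, 1.47, 1.39 and 1.31 CPM in the exercised libraries. The exercised libraries were low and close to each other, and unexercised replicate 1 was near them. All exercised libraries lay below 5 CPM, the minimum mean, which was set in the unexercised libraries only. A gene model with the groups exchanged could not have been a member, so the direction follows in part from the choice. The exercised mean was 1.33 ± 0.132 CPM and the unexercised mean 4.58 ± 1.97 CPM (SD, n = 4 each). On the log2 scale the change was -1.77 ± 0.34 (SE), with an adjusted p of 0.0151 in edgeR. It belongs to the 75 low in unexercised replicate 1, but its exercised SD of 0.0804 on the log2(CPM + 1) scale was among the smaller of the 8124, at rank 7440. The adjusted p was 0.0512 in limma voom and 0.188 with all 10 libraries, and 3.37e-05 at its lowest.

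The next in each direction did not pass in edgeR with the 8 libraries. Nfu_g_1_018267 averaged 336 ± 106 CPM over the exercised and 135 ± 59.8 CPM over the unexercised libraries (SD, n = 4 each), a log2 difference of 1.31 ± 0.35 (SE) with an adjusted p of 0.0556 in edgeR. Its lowest exercised library, at 196 CPM, was just above its highest unexercised one, at 194 CPM. It did pass without exercised replicate 1 (edgeR adjusted p = 0.0245), with a filter of 1 CPM in 4 libraries (0.0497), in DESeq2 (0.00123) and in limma voom (0.0462). Nfu_g_1_001486 averaged 10.3 ± 4.47 CPM over the exercised and 25.4 ± 10.6 CPM over the unexercised libraries (SD, n = 4 each), a log2 difference of -1.31 ± 0.37 (SE) with an adjusted p of 0.0739 in edgeR, and its groups overlapped. It did pass without exercised replicate 1 (edgeR adjusted p = 0.0215), without unexercised replicate 3 (0.0458) and in DESeq2 (0.00344). With all 10 libraries the edgeR adjusted p was 0.528 for the former and 0.451 for the latter, the highest over their alternatives.

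**Figure D5:**
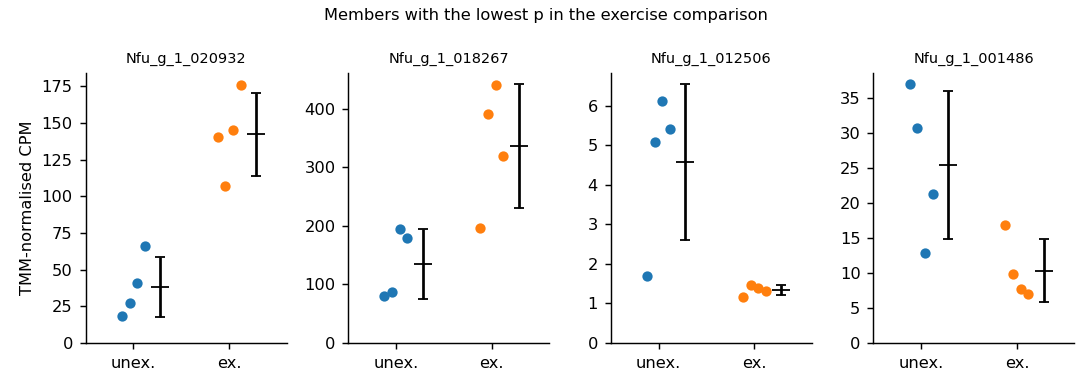
Points are TMM-normalised CPM of the 4 unexercised and 4 exercised libraries for the 2 members of lowest p in each direction, with the mean ± SD beside them. The groups do not overlap in the first 3 panels and overlap in the last; the first and the third passed the threshold.

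Of the 75 members low in unexercised replicate 1, 0 were called higher and 1 lower in exercised muscle, beside 3.96% and 2.38% of all tested. Their log2 fold changes had a median of -0.40, and the SE of a single member had a median of 0.72. This is not the SE of the median, and it is widened in part by the choice. The members also varied together, so these values cannot show that the set did not differ. Without exercised replicate 1, 5 of the 200 members were called higher and 5 lower, while the calls over all gene models rose to 1812, or 11.7% of those tested.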

How the data were processed

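Total RNA of muscle from 10 samples was made into libraries with a TruSeq RNA kit, per the labels. Tools named in the submitters' processing notes, without their roles, are featureCounts 1.4.6-p4, STAR 2.4.1d and bcl2fastq 1.8.4. The genome build, annotation, strand setting and handling of shared reads are not given in the sources used here. Gene models that overlap, lie antisense or have a near-identical copy are therefore uncertain. The deposited counts are whole reads per gene model. The deposited RPKM were scaled by the authors; they match the counts only with library totals running down the rows (lengths vary by a median of 0.012%, against 18.8% with each library's own total), and served only to recover lengths.

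Samples were grouped by the source label and numbered within groups. Chi-square per degree of freedom was at least 27.6 over the 20 pairs within groups, so no such pair matched within sampling noise; pairs between groups were not compared.

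Counts were divided by median-of-ratios size factors (17400 gene models with counts in all 10 libraries) and scaled to CPM by the mean total. Members were ranked by SD of log2(CPM + 1). The members, lists, patterns and tests were chosen with earlier results of these data known. The identifiers named are the 2 members of largest SD with a high and with a low farthest library, and the 2 of lowest p in each direction; the files pair identifiers with no names. The marker lists written for the case of named gene models could not be read.

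The exercise test used edgeR 4.0.16 in R 4.3.3 (TMM, filterByExpr with minimum count 10 and total 15, robust, group only). The SE was the log2 fold change over the square root of F. Alternatives used DESeq2 1.42.0 and limma 3.58.1 voom, other scalings, filters and pseudocounts, and left out each library. Ranking and tests were run on simulated data with noise drawn independently for each gene model, unlike the members of the largest set. This was a check of the procedure only. Figures used matplotlib 3.10.9. Intervals of counting error cover counts only: reads amplified by PCR are not independent molecules.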

Additional observations from a re-analysis of the deposited data

Results flagged for a closer look

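Of 26 group-wise checks of 5 libraries, 5 had 1 library far from the rest of its group. Chance would give about 1.3 for independent checks of items not chosen on these data. The members checked were chosen by SD or lowest p and some library measures overlap, so the flags cannot be weighed against that figure. The share of counts in the 10 most abundant gene models was 25.78% for exercised replicate 3 and 24.19% for unexercised replicate 4, and the size factor of unexercised replicate 4 was 1.504. These are the 2 libraries left out of the choice of members. Nfu_g_1_012506, the member that was lower in exercised muscle, stood at 3.332 CPM in exercised replicate 3, above the 1.34 to 1.66 CPM of the rest of its group. It stood at 1.935 CPM in unexercised replicate 1, below the 5.23 to 7.03 CPM of the rest. The latter library was part of the choice of members, so a member far from its group there follows in part from the choice.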

How the results depend on the processing

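Of the 200 members, 95 remained with a minimum mean of 1 CPM, 95 with 20 CPM, 86 with no minimum, 20 with all 5 unexercised libraries and 127 to 159 without each unexercised library (127 without replicate 1). With all 5 libraries the commonest pattern became a high value in unexercised replicate 4, with 173 members. With a minimum of 1 CPM or none it was a high value in unexercised replicate 5, with 79 and 91. Between 73 and 110 of the members chosen under other scalings, pseudocounts, minimums and rankings were shared with the exercised list. Without each library it was 60 to 111, with 60 without unexercised replicate 1. With all 5 libraries of each group 157 were shared, from rankings that include the 2 libraries that stood apart, so these are largely other gene models. In the top 10% there were 123 to 163, and 195 with all 5 libraries of each group. Setting the minimum in the exercised libraries, added after the data had been seen, gave 98 shared. Calls over all gene models were 964, with 614 by library totals only, 1540 in DESeq2, 0 with 10 libraries, and 358 (without exercised replicate 2) to 1812 (without exercised replicate 1) without each library. Members called were 2, with 9 in DESeq2, 0 with 10 libraries and 1 (without exercised replicate 4) to 10 (without exercised replicate 1) without each library. The mean correlation of the 75 over exercised libraries was 0.64 to 0.69 without each library, 0.72 with library totals only and 0.55 with exercised replicate 3 added. The cause of these shifts was not tested. No fold change of the 4 members tested above changed sign. No paired analysis was possible because the labels give no replicate numbers shared between groups.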

Other observations

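Among the 200 members, 6 pairs had consecutive identifier numbers. Of these 3 shared a pattern, against 20.8% of all 19900 pairs of members. In 2 pairs the values over the 4 exercised libraries correlated at 0.993 and 0.994, and in the other 4 between -0.214 and 0.222. The pair at 0.993 shared a pattern and the pair at 0.994 did not. The other pairs that shared a pattern were at 0.00278 and 0.222. How many of all member pairs correlate so closely over 4 libraries was not counted. Whether consecutive numbers mark neighbouring gene models is not given in the sources used here. These pairs were looked at after the values had been seen.

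The 200 members, 2.46% of the eligible gene models, held 35.0% of the summed squared deviations of log2(CPM + 1) of all eligible gene models among the 4 unexercised libraries, which made the choice. Among the 4 exercised libraries, which did not, they held 29.5%. In 19 members the mean over the exercised libraries was below 5 CPM, a minimum that was set in the unexercised libraries only.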
